A study of Mus musculus with 48 samples.

Results

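The Slc25 family consists of carriers that move metabolites, nucleotides, cofactors and ions across membranes, nearly all of them in the mitochondrial inner membrane. Its members in mouse liver were followed over the day by ribosome profiling, in which only mRNA pieces covered by a ribosome (footprints) are sequenced, and by total RNA sequencing. Members were all genes whose symbol begins with Slc25a, matched by Ensembl identifier, with a mean of at least 1 RPKM (reads scaled to gene length and to library size) in both assays. Of 48 such symbols in the annotation, 38 were listed in at least 1 assay and 34 met the threshold, among 9445 genes tested, and 33 of the 34 are described. The members with the lowest levels were Slc25a29, at a mean of 1.33 RPKM in footprints and 1.31 RPKM in total RNA, and Slc25a40, at 1.63 RPKM in footprints and 2.43 RPKM in total RNA. Just outside lay Slc25a14 (0.988 RPKM in footprints and 1.92 RPKM in total RNA), Slc25a24 (0.744 RPKM in footprints and 1.08 RPKM in total RNA), Slc25a36 (0.702 RPKM in footprints and 1.85 RPKM in total RNA) and Slc25a34 (0.502 RPKM in footprints and 1.32 RPKM in total RNA).

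The 48 libraries were 24 footprint and 24 total RNA libraries of male C57BL/6JRj mice aged 11 to 12 weeks, kept for 2 weeks in 12 h of light and 12 h of darkness and carrying no allele or treatment named in the labels. Livers were collected at 12 zeitgeber times (ZT, hours after lights on) spaced by 2 h, with 2 replicates at each. A replicate was 1 pooled lysate of 2 mouse livers, and it gave both a footprint and a total RNA library, so that the replicates of a time point are different animals. Whole liver holds several cell types, and in such samples fewer cells of a type and less RNA per cell cannot be told apart.

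Approximate depth, recovered from the steps between low RPKM values, was 13910000 to 43230000 reads on listed genes in footprints and 3870000 to 23790000 reads in total RNA, with the shallowest total RNA libraries at ZT18. The least abundant carrier, Slc25a29, had a median of about 22.5 reads per footprint library and 13.0 per total RNA library, and about 1.99 reads in the total RNA of ZT18 replicate 2. All 7 hepatocyte markers were listed in both assays, whereas none of 5 skeletal muscle or 2 brown fat markers was listed in either. Pancreatic acinar markers stood high in 6 pools (ZT2 replicates 1 and 2, ZT4 replicate 1, ZT6 replicate 1, ZT8 replicate 2 and ZT16 replicate 2), 5 of them in the light phase. Their summed level over ZT12 to ZT20 had a median of 6.30 RPKM in footprints and 11.5 RPKM in total RNA, and over ZT2 to ZT10 one of 244 RPKM in footprints and 127 RPKM in total RNA. Calls that ended without those pools, and folds that moved by over 1.5 times, are named beside their values.

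A carrier of this family alternates between a state open to the cytosol and a state open to the matrix, and in most cases exchanges 1 solute for another. The proteins are made on cytosolic ribosomes from nuclear genes and are inserted into the inner membrane by the TIM22 complex with the help of small chaperones of the intermembrane space. In hepatocytes they link both compartments for the urea cycle, gluconeogenesis, fatty acid synthesis and oxidation, ATP export, and the supply of coenzymes and iron.

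Promoter sequence from RefSeq (GRCm38.p6, 250 bases before to 50 bases after the annotated start) matched 27 of these 33 genes with 34 promoters. The E-box CACGTG, the sequence bound by the core clock activators, was present on either strand in the promoters of 4 members, Slc25a1, Slc25a13, Slc25a15 and Slc25a33, against 7.15% of all 32851 promoters of the same length. The D-box TTANNTAA was found in 1 member, Slc25a25 (6.00% of all promoters), and the ROR element NTAGGTCA in 0 members (2.59% of all promoters). These motifs do not overlap in sequence. Of the 9 carriers called rhythmic in the account that follows, Slc25a22, Slc25a30, Slc25a38, Slc25a42 and Slc25a47 had a promoter entry, and none of these held any of the 3 motifs. Slc25a32, Slc25a37, Slc25a44 and Slc25a51 had no entry. With motifs this rare, so few promoters cannot show whether motif and rhythm go together, and this was not tested. The 4 promoters shown are those of the widest cycling carriers, Slc25a30 (chr14:75786988-75787287 on the minus strand) and Slc25a47 (chr12:108850879-108851178 on the plus strand), and those of 2 E-box carriers that were not called, Slc25a13 (chr6:6217124-6217423 on the minus strand) and Slc25a33 (chr4:149774218-149774517 on the minus strand). Each is written 5′ to 3′ on the strand of the gene in lower case, with the E-box in capitals, its first base lying at -125 from the start in Slc25a13 and at -8 in Slc25a33. A match is a description of the letters and not a sign of binding.
Slc25a30: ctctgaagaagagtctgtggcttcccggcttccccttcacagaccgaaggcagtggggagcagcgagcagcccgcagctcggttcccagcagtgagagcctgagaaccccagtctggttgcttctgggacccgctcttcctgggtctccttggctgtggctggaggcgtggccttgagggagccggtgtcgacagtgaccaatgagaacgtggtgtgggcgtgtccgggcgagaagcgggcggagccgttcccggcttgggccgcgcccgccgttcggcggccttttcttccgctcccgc
Slc25a47: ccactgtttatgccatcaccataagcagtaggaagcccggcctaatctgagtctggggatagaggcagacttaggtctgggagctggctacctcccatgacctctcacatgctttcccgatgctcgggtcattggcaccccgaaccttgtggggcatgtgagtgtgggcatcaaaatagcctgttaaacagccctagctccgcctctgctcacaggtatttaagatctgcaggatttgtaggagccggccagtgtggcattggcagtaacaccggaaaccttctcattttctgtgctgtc
Slc25a13: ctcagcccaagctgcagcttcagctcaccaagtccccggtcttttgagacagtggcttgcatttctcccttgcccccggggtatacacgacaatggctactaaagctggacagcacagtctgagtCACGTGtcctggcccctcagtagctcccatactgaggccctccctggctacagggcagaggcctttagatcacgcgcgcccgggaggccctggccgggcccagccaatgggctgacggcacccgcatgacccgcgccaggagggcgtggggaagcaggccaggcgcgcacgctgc
Slc25a33: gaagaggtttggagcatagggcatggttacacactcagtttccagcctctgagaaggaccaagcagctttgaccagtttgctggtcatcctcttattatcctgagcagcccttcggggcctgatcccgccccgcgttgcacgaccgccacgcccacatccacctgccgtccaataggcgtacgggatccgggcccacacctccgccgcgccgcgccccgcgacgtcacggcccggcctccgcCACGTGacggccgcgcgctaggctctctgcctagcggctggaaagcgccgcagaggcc

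A daily rhythm was tested in each assay on log2(RPKM + 0.1) with a cosine and sine of 24 h in limma, with p-values adjusted by the Benjamini-Hochberg method over all 9445 genes, and was called where the adjusted p was under 0.05 and the fitted peak lay at least 1.5-fold above the trough. The pseudocount makes folds of the least abundant carriers somewhat too small. In footprints 6 of 33 carriers were called (18.2%), against 16.7% of all genes tested. In total RNA 8 carriers were called (24.2%), against 15.8% of all genes. Slc25a22, Slc25a30, Slc25a37, Slc25a42 and Slc25a47 were called in both assays, 15.2% of the carriers, against 11% of all genes. Slc25a51 was called in footprints and not in total RNA, and Slc25a32, Slc25a38 and Slc25a44 in total RNA and not in footprints. The other 24 were called in neither assay. The median fold of the 33 carriers was 1.28 in footprints, against 1.23 over all genes, and 1.27 in total RNA, against 1.25 over all genes.

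**Figure D1:**
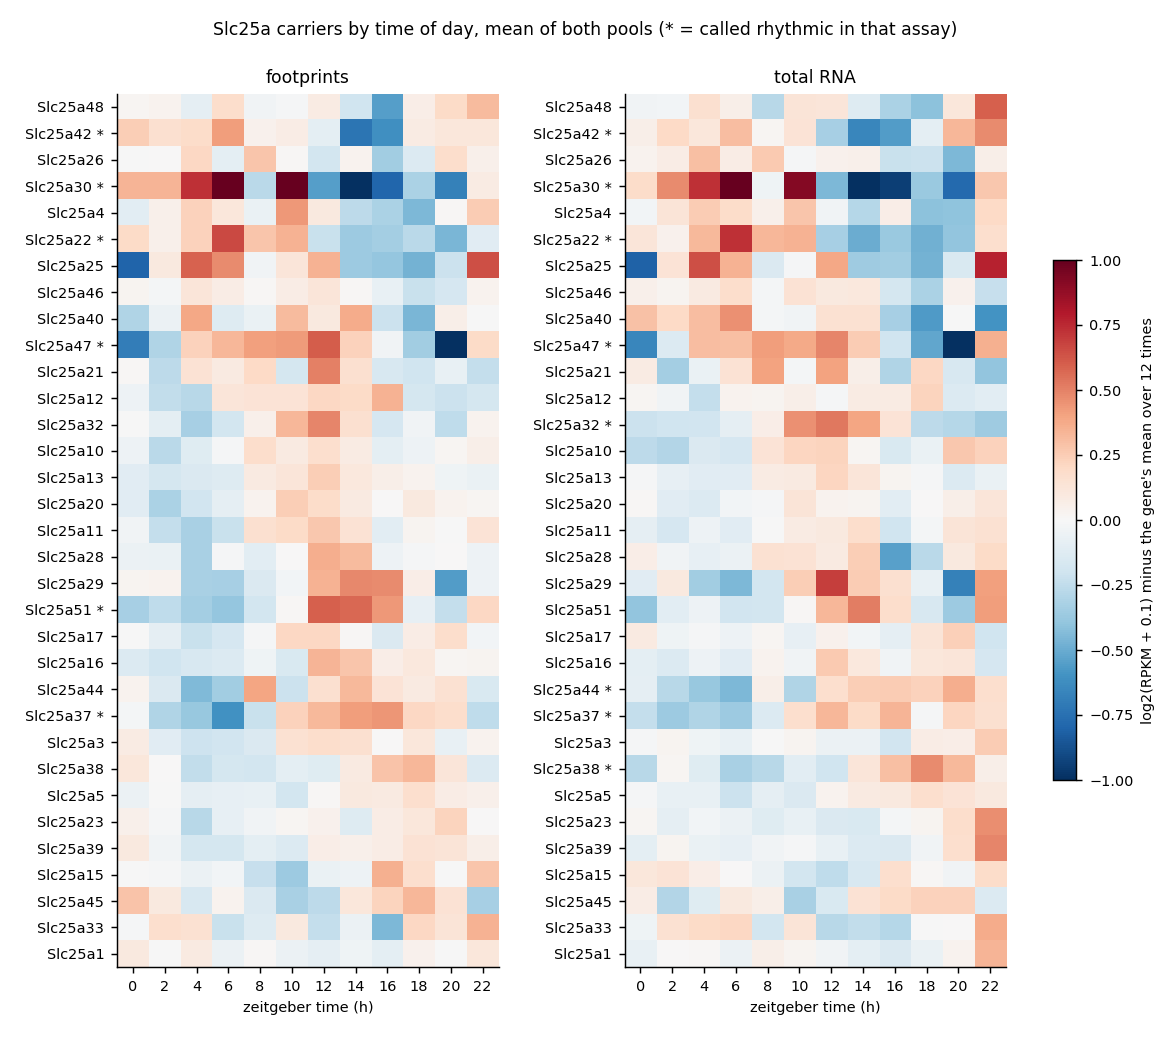
Colour shows log2(RPKM + 0.1) of each of the 33 carriers at each zeitgeber time (horizontal axis, h), averaged over 2 pools and set against the gene's own mean over 12 times, in footprints (left) and total RNA (right), with rows ordered by fitted footprint peak and an asterisk at carriers called rhythmic in that assay. Slc25a30 and Slc25a47 carry the deepest colours in both assays. Fitted peaks of the called carriers lie in the light phase for some and in the dark phase for others. The highest time can differ from the fitted peak, as in Slc25a42, whose total RNA is highest at ZT22.

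Fitted peaks of the called carriers fell on both sides of the day. In footprints 4 of the 6 peaked between ZT0 and ZT12 (Slc25a22, Slc25a30, Slc25a42 and Slc25a47) and 2 between ZT12 and ZT24 (Slc25a37 and Slc25a51). In total RNA 5 of the 8 peaked between ZT0 and ZT12, the same 4 with Slc25a32, and 3 between ZT12 and ZT24 (Slc25a37, Slc25a38 and Slc25a44). In the 5 carriers called in both assays the fitted footprint peak minus the fitted total RNA peak ran between -0.022 h in Slc25a30 and 0.945 h in Slc25a42, with a median of 0.555 h.

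The carriers of adenine nucleotides and phosphate include those that bring ADP and phosphate to the ATP synthase and export ATP. None of the 5 was called in either assay. Slc25a5, an ADP/ATP carrier, was the most abundant member by RPKM, at 500.4 ± 38.3 RPKM in footprints and 418.1 ± 37.2 RPKM in total RNA (SD, n = 24 libraries each). Its fitted fold was 1.17 in footprints (adjusted p = 0.00434, limma) and 1.24 in total RNA (adjusted p = 0.000142). The fitted peak lay at ZT18.1 in footprints and ZT18.2 in total RNA. Slc25a5 thus passed the rhythm test but not the minimum fold. Its coding sequence is at least 95% identical over 100 bases or more to 3 other annotated genes (Gm5529, Gm5560 and Gm13798), and reads of such copies could be shared, so its level is uncertain. Slc25a4, the ADP/ATP carrier dominant in muscle and heart, stood far lower, at 6.10 ± 1.22 RPKM in footprints and 6.65 ± 1.34 RPKM in total RNA. Its fold was 1.33 in footprints and 1.38 in total RNA, with a peak at ZT5.3 in footprints and ZT5.6 in total RNA, under the minimum fold. Slc25a3, the phosphate carrier, averaged 173.7 ± 20.6 RPKM in footprints and 164.0 ± 13.3 RPKM in total RNA, with folds of 1.20 in footprints and 1.11 in total RNA.

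Slc25a25, a calcium-regulated carrier of ATP-Mg and phosphate, varied widely without a called rhythm. Its fitted fold was 1.56 in footprints (adjusted p = 0.215) and 1.44 in total RNA (adjusted p = 0.313). Its values were 26.4 to 138 RPKM in footprints and 26.1 to 127 RPKM in total RNA, and in both assays the highest library was ZT6 replicate 2 and the lowest ZT0 replicate 1. Slc25a23, a carrier of the same subgroup, averaged 11.96 ± 1.21 RPKM in footprints and 89.9 ± 12.9 RPKM in total RNA, a gap described below with the efficiencies.

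The carboxylate carriers connect the citric acid cycle with cytosolic synthesis and redox shuttles, and none of the 4 was called in either assay. Slc25a1, which exports citrate for fatty acid synthesis, averaged 114.8 ± 7.0 RPKM in footprints and 155.5 ± 15.0 RPKM in total RNA and had the narrowest footprint range of the family, 1.11-fold. Acly, the cytosolic enzyme that cleaves the exported citrate, had a fitted fold of 2.16 in footprints and 2.27 in total RNA, both called with a peak at ZT20.4. Slc25a10, the dicarboxylate carrier, averaged 103.3 ± 11.3 RPKM in footprints and 87.4 ± 13.5 RPKM in total RNA and had folds of 1.16 in footprints and 1.20 in total RNA. Slc25a11, the oxoglutarate carrier of the malate-aspartate shuttle, had folds of 1.26 in footprints and 1.10 in total RNA. Slc25a21, which carries oxodicarboxylates of lysine and tryptophan breakdown, stood at 9.09 ± 1.67 RPKM in footprints and 7.30 ± 1.57 RPKM in total RNA, with folds of 1.29 in footprints and 1.35 in total RNA that did not pass the test.

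Among 7 amino acid carriers, Slc25a22 had the widest daily range. Slc25a22 imports glutamate with a proton. It was highest at ZT6 in both assays, with 93.8 and 113 RPKM in the footprints of the 2 pools and 55.0 and 62.0 RPKM in their total RNA. It was lowest at ZT20 in footprints (48.0 and 46.7 RPKM) and at ZT14 in total RNA (23.0 and 26.9 RPKM). The 10 libraries of ZT12 to ZT20 lay below the 10 of ZT2 to ZT10 without overlap in both assays. The share of all genes that part in this way is not given here, so this split and those below only describe the values. With ZT0 and ZT22 included the dark and light phases overlapped: ZT12 to ZT22 reached 71.5 RPKM in footprints and 46.4 RPKM in total RNA, and ZT0 to ZT10 went down to 59.1 RPKM in footprints and 30.7 RPKM in total RNA. In footprints the ZT12 to ZT20 libraries held 46.7 to 59.6 RPKM and the ZT2 to ZT10 libraries 61.8 to 113 RPKM, and in total RNA the ZT12 to ZT20 libraries held 23.0 to 31.3 RPKM and the ZT2 to ZT10 libraries 34.1 to 62.0 RPKM. The fitted fold was 1.79 in footprints (95% interval 1.5 to 2.13, peak ZT5.6 ± 0.56 h SE, adjusted p = 3.6e-05, limma) and 1.96 in total RNA (1.62 to 2.37, peak ZT5.0 ± 0.53 h SE, adjusted p = 1.7e-05).

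Slc25a38 and Slc25a44 were called in total RNA and peaked in the dark phase. Slc25a38, a carrier needed for glycine import in heme synthesis, was highest in total RNA at ZT18 (22.3 and 18 RPKM) and lowest at ZT6 (11.2 and 11.7 RPKM). Its fold was 1.34 in footprints (adjusted p = 0.012) and 1.52 in total RNA (1.31 to 1.76, peak ZT18.2, adjusted p = 0.000208). It passed the rhythm test in both assays and the minimum fold in total RNA. The total RNA call ended without ZT18 replicate 1 (1.46-fold) and without both pools of ZT18 (1.44-fold). Slc25a44, a carrier of branched-chain amino acids, had 31.6 and 30.5 RPKM in total RNA at ZT20 and 17.6 and 17.7 RPKM at ZT6. All 10 of its ZT12 to ZT20 total RNA libraries lay above those of ZT2 to ZT10, except that ZT8 replicate 1 (25.8 RPKM) reached into their range of 25.7 to 31.6 RPKM. At ZT22, in the dark phase but outside both windows, total RNA was 32.0 and 23.0 RPKM. The lower of these lay inside the ZT2 to ZT10 range of 17.6 to 25.8 RPKM. Its fold was 1.36 in footprints (adjusted p = 0.057) and 1.60 in total RNA (1.39 to 1.85, peak ZT17.1, adjusted p = 3.2e-05).

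The remaining amino acid carriers were not called. Slc25a15, the ornithine carrier of the urea cycle, was the most abundant of them, at 198.5 ± 32.8 RPKM in footprints and 169.2 ± 20.9 RPKM in total RNA, with folds of 1.32 in footprints (peak ZT19.9) and 1.24 in total RNA (peak ZT23.4). Slc25a13, the aspartate/glutamate carrier of liver known as citrin, averaged 125.8 ± 12.5 RPKM in footprints and 143.9 ± 12.3 RPKM in total RNA and had folds of 1.25 in footprints and 1.18 in total RNA. Its close relative Slc25a12, the form of muscle and brain, stood at 10.7 ± 1.7 RPKM in footprints and 11.4 ± 1.3 RPKM in total RNA, with folds of 1.38 in footprints and 1.13 in total RNA. Slc25a29, a carrier of basic amino acids, had folds of 1.46 in footprints and 1.39 in total RNA on few reads. Around the ornithine carrier, the urea cycle enzymes Asl (2.13-fold in footprints with a peak at ZT17.4, 2.00-fold in total RNA with a peak at ZT17.7) and Arg1 (1.55-fold in footprints, called, and 1.26-fold in total RNA, not called) peaked in the dark phase, whereas Otc, which uses the imported ornithine, had folds of 1.11 in footprints and 1.07 in total RNA and was called in neither assay. Ass1 had folds of 1.39 in footprints (peak ZT3.4 in the light phase, adjusted p = 0.0115) and 1.34 in total RNA (adjusted p = 0.0975), and Cps1 folds of 1.11 in footprints (adjusted p = 0.427) and 1.21 in total RNA (adjusted p = 0.0622), with no call for either.

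Slc25a20, the carnitine/acylcarnitine carrier that brings fatty acids in for oxidation, was not called. It averaged 120.2 ± 17.8 RPKM in footprints and 97.0 ± 10.4 RPKM in total RNA. Its fold was 1.27 in footprints (peak ZT13.7, adjusted p = 0.0118) and 1.06 in total RNA (adjusted p = 0.728), the smallest total RNA fold of the family. Cpt1a, which makes the acylcarnitine that this carrier takes up, had called folds of 2.22 in footprints and 1.85 in total RNA and peaks at ZT9.9 in both. Crat, a carnitine acetyltransferase, cycled by 1.63-fold in footprints with a peak at ZT22.4 and by 1.78-fold in total RNA with a peak at ZT22.7.

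**Figure D2:**
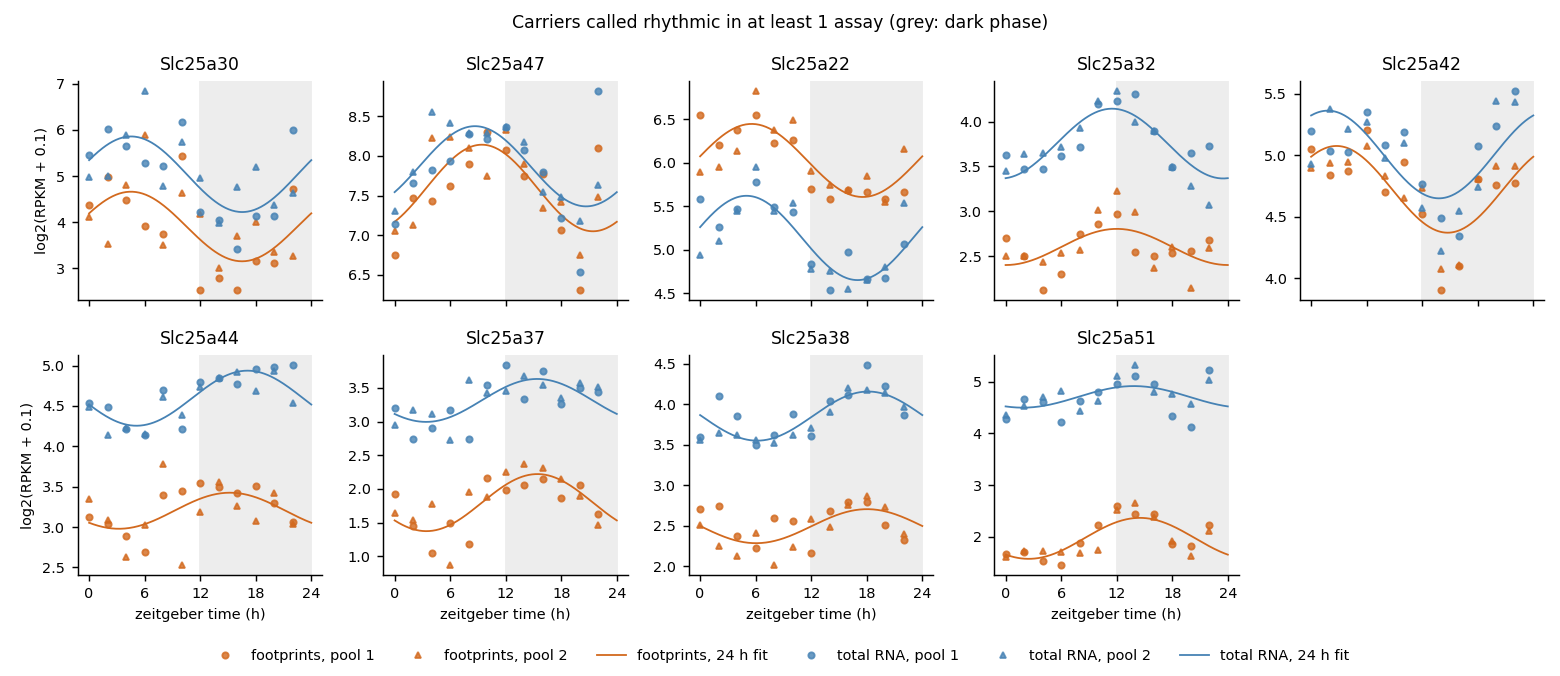
Points are log2(RPKM + 0.1) of each pool (circles, pool 1 and triangles, pool 2) against zeitgeber time (h) for the 9 carriers called in at least 1 assay, footprints in orange and total RNA in blue, and lines are the 24 h fits. The 2 assays of Slc25a22, Slc25a30, Slc25a42 and Slc25a47 move in parallel, and the vertical gap between them is widest in Slc25a51.

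The 7 cofactor and nucleotide carriers described held 3 called members. Slc25a42, which brings coenzyme A into the matrix, was low in a narrow window of the early night. Footprints were highest at ZT6 (36.7 and 33.6 RPKM), with 14.8 and 16.8 RPKM at ZT14 and 17.1 and 17.2 RPKM at ZT16, and no other time point had a footprint library under 22.8 RPKM. Total RNA was highest at ZT22 (45.8 and 43.0 RPKM), with 22.4 and 18.5 RPKM at ZT14 and 20.2 and 23.3 RPKM at ZT16. The fitted fold was 1.63 in footprints (1.35 to 1.96, peak ZT2.8, adjusted p = 0.000502) and 1.64 in total RNA (1.33 to 2.01, peak ZT1.8, adjusted p = 0.00135).

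Slc25a32, a carrier linked to folate and FAD import, rose around dusk in total RNA. Its total RNA was 18.7 and 20.1 RPKM at ZT12 and 13.2 and 8.28 RPKM at ZT22, and the 6 libraries of ZT10 to ZT14 were the 6 highest. The fold was 1.32 in footprints (peak ZT12.0, adjusted p = 0.0389) and 1.71 in total RNA (1.47 to 2.00, peak ZT11.5, adjusted p = 2.1e-05). Footprints thus passed the rhythm test, with a fitted peak near that of total RNA, but not the minimum fold.

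Slc25a51, the carrier that imports NAD, cycled in footprints. It had 5.97 and 5.66 RPKM in footprints at ZT12, 5.32 and 6.17 RPKM at ZT14 and 5.32 and 5.09 RPKM at ZT16, and every other footprint library lay at or below 4.60 RPKM. Total RNA was highest at ZT14 too, with 34.6 and 39.8 RPKM, and lowest at ZT0 with 19.3 and 20.2 RPKM. The fold was 1.73 in footprints (1.42 to 2.11, peak ZT14.5, adjusted p = 0.000271) and 1.34 in total RNA (1.06 to 1.69, peak ZT13.8, adjusted p = 0.102). With time as a factor of 12 levels total RNA was called as well. That fit tests for any difference between time points and not for a 24 h rhythm. Its fold is the highest over the lowest time point mean, which noise widens, so it is not like the cosine fold.

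The other 4 cofactor carriers were not called. Slc25a17, a peroxisomal carrier of coenzyme A and related nucleotides, averaged 49.8 ± 6.5 RPKM in footprints and 62.2 ± 6.5 RPKM in total RNA, with folds of 1.15 in footprints and 1.07 in total RNA. Slc25a16, a relative of the coenzyme A carrier, had folds of 1.31 in footprints and 1.19 in total RNA. Slc25a26, which carries S-adenosylmethionine, had folds of 1.18 in footprints and 1.36 in total RNA, and Slc25a33, a pyrimidine nucleotide carrier, had folds of 1.28 in footprints and 1.33 in total RNA.

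Of the 4 iron and glutathione carriers, the mitoferrin Slc25a37, which imports iron and is the main form of erythroid cells, was called in both assays. It had 4.35 and 4.88 RPKM in footprints at ZT16 and 2.73 and 1.74 RPKM at ZT6, and 13.4 and 11.6 RPKM in total RNA at ZT16 and 6.56 and 8.88 RPKM at ZT2. ZT12 to ZT20 footprints lay between 3.53 and 5.07 RPKM and those of ZT2 to ZT10 between 1.74 and 4.39 RPKM, and the windows overlapped through ZT8 replicate 2 and both pools of ZT10. At ZT22, in the dark phase but outside both windows, footprints were 2.99 and 2.65 RPKM, inside the ZT2 to ZT10 range. The fold was 1.80 in footprints (1.46 to 2.22, peak ZT15.4, adjusted p = 0.000285) and 1.56 in total RNA (1.29 to 1.88, peak ZT15.4, adjusted p = 0.00176). With time as a factor both calls ended (adjusted p = 0.0521 in footprints and 0.0929 in total RNA).

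Erythroid transcripts were present in these livers, and their part in the Slc25a37 and Slc25a38 values was not tested. Of 8 erythroid markers 4 were listed (Hba-a1, Hba-a2, Hbb-bt and Alas2), and the other 4 were not. Their summed level over ZT12 to ZT20 was 241 to 1204 RPKM in footprints and 301 to 991 RPKM in total RNA. Over ZT2 to ZT10 it was 258 to 638 RPKM in footprints and 379 to 562 RPKM in total RNA. ZT16 replicate 1 was the highest pool in both assays. The 3 globins were called in neither assay, and Alas2, the erythroid enzyme that starts heme synthesis, was called in footprints with a fold of 1.86 and a peak at ZT1.1.

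The second mitoferrin, Slc25a28, which is expressed in most tissues, averaged 4.74 ± 0.81 RPKM in footprints and 9.94 ± 2.08 RPKM in total RNA, with folds of 1.26 in footprints and 1.12 in total RNA and no call. Slc25a39, which is needed for glutathione import, was abundant, at 80.4 ± 8.1 RPKM in footprints and 187.1 ± 27.5 RPKM in total RNA. Its total RNA was 253 and 268 RPKM at ZT22, above every library of the other times (156 to 235 RPKM), while its footprints at ZT22 were 78.3 and 88.8 RPKM, inside their range at other times. Both libraries of ZT22 lay above all others in 0.879% of all genes in footprints and in 6.74% in total RNA. Its cosine folds were 1.22 in footprints and 1.20 in total RNA, and total RNA was called with time as a factor. Slc25a40, its relative, had folds of 1.25 in footprints and 1.54 in total RNA without passing the test (adjusted p = 0.271 in footprints and 0.0871 in total RNA), and shares 96.3% identity over 724 coding bases with Gm5066.

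Slc25a30, an inner membrane carrier related to the uncoupling proteins, had the widest daily range of the family. It was highest at ZT6 in 1 pool, with 15.0 and 59.2 RPKM in footprints and 39.0 and 114 RPKM in total RNA, and lowest at ZT14, with 6.81 and 7.90 RPKM in footprints and 16.5 and 15.7 RPKM in total RNA. Its ZT12 to ZT20 libraries had a median of 8.69 RPKM in footprints and 18 RPKM in total RNA, and those of ZT2 to ZT10 had medians of 23.5 RPKM in footprints and 51.8 RPKM in total RNA, although single libraries of both windows overlapped. The fold was 2.84 in footprints (1.62 to 4.98, peak ZT4.5 ± 1.00 h SE, adjusted p = 0.0106) and 3.11 in total RNA (1.95 to 4.95, peak ZT4.5 ± 0.76 h SE, adjusted p = 0.00114). Without the 6 pools high in acinar transcripts the fold was 4.72 in footprints and 4.76 in total RNA, and both calls were kept. The footprint call ended with time as a factor (4.42-fold, adjusted p = 0.135). Of the relatives whose symbols do not begin with Slc25a, Ucp2, an uncoupling protein, was called in footprints (1.53-fold, peak ZT8.0, adjusted p = 0.0343) and not in total RNA (1.35-fold), Mtch1 and Mtch2 were called in neither assay, and Ucp1 and Ucp3 were not tested.

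Slc25a47, a carrier enriched in liver whose substrate is not settled, was called in both assays and was the second most abundant member. It had 269 and 321 RPKM in footprints and 328 and 329 RPKM in total RNA at ZT12, and 78.9 and 108 RPKM in footprints and 93.0 and 145 RPKM in total RNA at ZT20. Levels climbed through the light phase and were low between ZT18 and ZT0, with ZT22 as an exception (274 and 179 RPKM in footprints, 451 and 199 RPKM in total RNA). The fold was 2.13 in footprints (1.57 to 2.89, peak ZT9.4 ± 0.74 h SE, adjusted p = 0.000878) and 2.02 in total RNA (1.46 to 2.78, peak ZT8.7 ± 0.85 h SE, adjusted p = 0.00318). In GENCODE M21 its gene spans 108836046 to 108856815 on chromosome 12 (GRCm38), next to Slc25a29 on the other strand at 108825873 to 108835883. The RefSeq promoter shown above (108850879 to 108851178) lies inside this span and not at its first base. Which start is used in these livers was not tested. The gluconeogenic enzyme Pck1 was called in both assays, with peaks near those hours. Its footprints peaked at ZT9.3 (fold 2.42) and its total RNA at ZT9.2 (fold 2.07). Pcx, also gluconeogenic, was called in neither assay (footprint fold 1.13, total RNA fold 1.15). Pck2 was not called either (footprint fold 1.20, total RNA fold 1.11). Whether Slc25a47 is linked to this pathway was not tested.

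The other carriers of this group were not called. Slc25a45, whose substrate was long unsettled, averaged 16.9 ± 3.6 RPKM in footprints and 10.4 ± 1.9 RPKM in total RNA, with folds of 1.26 in footprints and 1.22 in total RNA. Slc25a46, an outer membrane protein linked to mitochondrial dynamics, had folds of 1.16 in footprints and 1.22 in total RNA. Slc25a48, linked to choline import, averaged 4.45 ± 0.95 RPKM in footprints and 6.14 ± 1.69 RPKM in total RNA, with folds of 1.21 in footprints and 1.22 in total RNA.

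**Figure D3:**
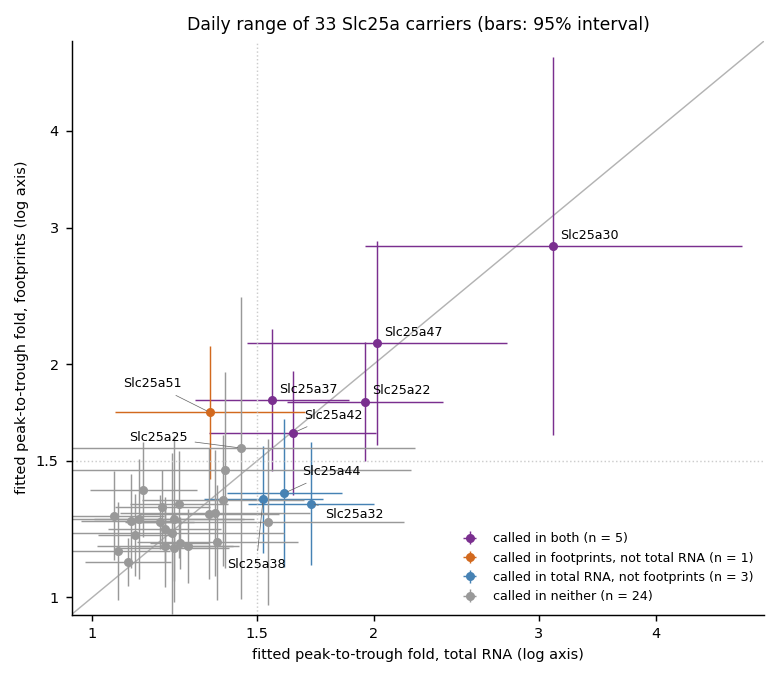
Fitted peak-to-trough fold of each of the 33 carriers in footprints (vertical log axis) against total RNA (horizontal log axis), with 95% intervals, the line of equal fold and dotted lines at a fold of 1.5. Most carriers sit below 1.5 in both assays, Slc25a30 and Slc25a47 stand apart above 2 in both, and Slc25a51 is the carrier called in footprints and not in total RNA.

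Some carriers passed the rhythm test below the minimum fold. With the adjusted p alone, 20 of 33 carriers passed in footprints, against 45% of all genes, and 17 in total RNA, against 43.1% of all genes. Those that passed below 1.5-fold numbered 14 of 33 in footprints, against 28.4% of all genes, and 9 of 33 in total RNA, against 27.3% of all genes, among them Slc25a13 and Slc25a5 in both assays.

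Of 30 enzymes and channels that work with the carriers, 6 were called in footprints (Acly, Pck1, Cpt1a, Crat, Asl and Arg1), against 16.7% of all genes, and 5 in total RNA, the same without Arg1, against 15.8% of all genes, with median folds of 1.21 in footprints and 1.22 in total RNA. Of 14 tested components of the import machinery, 0 were called in footprints, against 16.7% of all genes. In total RNA 2 were called, against 15.8% of all genes, the small chaperones Timm8a1 (1.61-fold) and Timm9 (1.58-fold). Those that passed at an adjusted p under 0.05 with folds below 1.5 numbered 8 in footprints, against 28.4% of all genes. In total RNA they numbered 4, against 27.3% of all genes.

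Whether footprints and total RNA of a gene differed in rhythm was tested over all 48 libraries by the interaction between assay and time. Without regard to the shared lysates, 0 of 33 carriers passed at an adjusted p under 0.05, against 0.371% of all genes, and 1 had an unadjusted p under 0.05 (Slc25a3, 0.0086). With time as a factor 0 passed as well, with 3 at an unadjusted p under 0.05. When the libraries of 1 lysate were paired, 2 carriers passed, Slc25a15 and Slc25a20, against 3.23% of all genes, and 6 had an unadjusted p under 0.05. Shares over all genes are not given here for time as a factor or for the unadjusted p. Those counts are thus no result about the carriers. The footprint to total RNA ratio of Slc25a15 had a fitted fold of 1.25 (1.13 to 1.38) with its peak at ZT16.6 (adjusted p = 0.0296), and its footprints were 250 and 253 RPKM at ZT16 beside 186 and 190 RPKM in total RNA. The ratio of Slc25a20 had a fold of 1.22 (1.11 to 1.34) with its peak at ZT13.2 (adjusted p = 0.0431).

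These 2 calls were not stable. Both ended without the 6 pools high in acinar transcripts (adjusted p = 0.294 for Slc25a15 and 0.343 for Slc25a20) and without both pools of ZT18 (0.0729 for Slc25a15 and 0.0765 for Slc25a20). The Slc25a15 call also ended without ZT2 replicate 2 or ZT18 replicate 1 (up to 0.0577 over 24 fits), and the Slc25a20 call was kept in 5 of the 24 fits that left out 1 pool. For the carriers called in 1 assay, the paired difference between assays did not pass either, with an adjusted p of 0.0895 for Slc25a51, 0.159 for Slc25a32, 0.264 for Slc25a44 and 0.514 for Slc25a38, so a call in 1 assay alone is not shown to be a difference between them. The median fold of the ratio was 1.14 over the 33 carriers, against 1.16 over all genes.

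The mean level of footprints for a given total RNA (efficiency) was set against the median gene, since both assays are scaled separately. It was called at an adjusted p under 0.05 with a difference of at least 1 on the log2 scale. The fit and its intervals used all 48 libraries without pairing those of 1 lysate. Of the 33 carriers 17 lay above and 16 below the median gene, with a median of 0.01 on the log2 scale, against 0.00 over all genes. Higher by the minimum were 2 carriers, against 6.78% of all genes, and lower by the minimum 5 carriers, against 12.9% of all genes.

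The 2 called higher were Slc25a22 and Slc25a45. Slc25a22 lay 1.23 above the median gene (1.09 to 1.36), a level 2.34 times as high, with 67.2 ± 18.2 RPKM in footprints and 36.5 ± 10.9 RPKM in total RNA and a ratio between 1.52 and 2.29 in every pool. Slc25a45 lay 1.02 above (0.86 to 1.18), and its call ended with a pseudocount of 0.5 (0.97). Next came Slc25a21 (0.66), Slc25a20 (0.64), Slc25a5 (0.60), Slc25a10 (0.59) and Slc25a15 (0.56), below the minimum difference.

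The 5 called lower were led by a wide margin by Slc25a23 and Slc25a51. Slc25a23 lay at -2.56 from the median gene (-2.64 to -2.47), at the 0.551 percentile of all genes, with a ratio between 0.0913 and 0.160 over the 24 pools. Slc25a51 lay at -2.40 (-2.56 to -2.24), at the 0.836 percentile, with 3.95 ± 1.10 RPKM in footprints and 26.6 ± 6.1 RPKM in total RNA and a ratio between 0.112 and 0.199. The highest ratio of either carrier in any pool was thus below the lowest ratio of every other member. Slc25a37 followed at -1.18, Slc25a44 at -1.06 and Slc25a38 at -1.02. The Slc25a38 call ended with a pseudocount of 0.5, with no filter on low values and without the pools high in acinar transcripts, and the Slc25a44 call with no filter. Slc25a46, Slc25a39 and Slc25a32 lay between -0.91 and -0.81, short of the minimum.

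**Figure D4:**
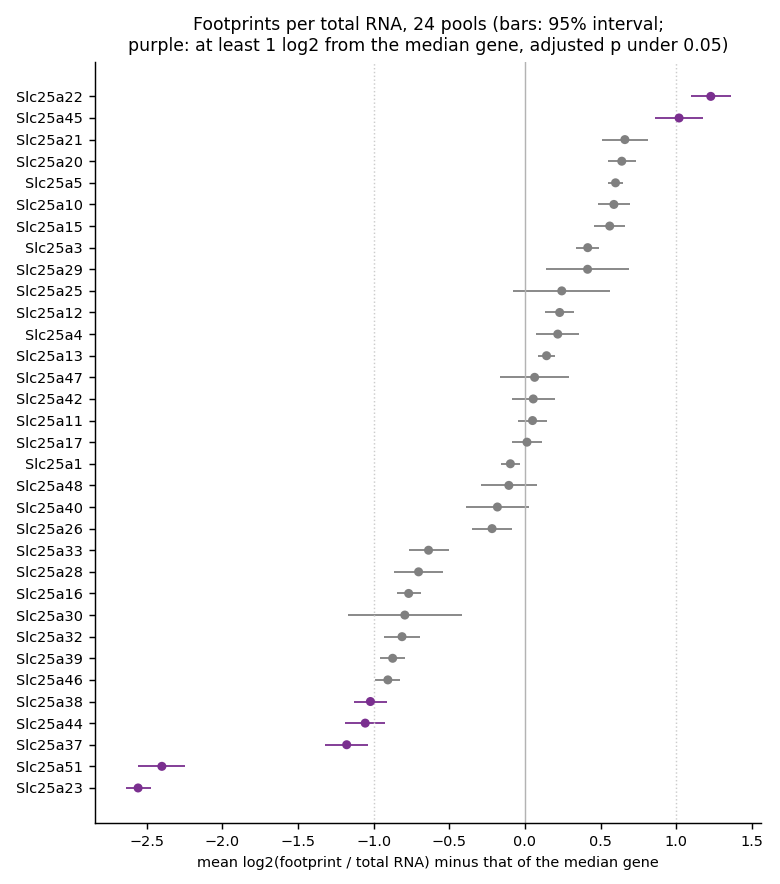
Mean log2 ratio of footprints to total RNA of each carrier minus that of the median gene (horizontal axis), ordered by value. Bars are 95% intervals of the fit to all 48 libraries, which did not pair those of 1 lysate. A solid line marks the median gene and dotted lines a difference of 1. Slc25a23 and Slc25a51 lie below -2, apart from the other 31 carriers, and Slc25a22 is the highest at 1.23.

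Close relatives differed in this level. The ADP/ATP carrier Slc25a5 lay at 0.60 (0.55 to 0.65) and Slc25a4 at 0.22 (0.08 to 0.36). Of the calcium-regulated ATP-Mg carriers, Slc25a25 lay at 0.24 (-0.08 to 0.56) and Slc25a23 at -2.56. Of the iron and glutathione carriers, Slc25a37 was called lower, Slc25a39 lay at -0.87 (-0.96 to -0.79) and Slc25a28 at -0.70 (-0.86 to -0.54), short of the minimum, and Slc25a40 lay at -0.18 with an interval that included the median gene (-0.39 to 0.03). The 4 carboxylate carriers lay between -0.10 for Slc25a1 and 0.66 for Slc25a21. Genes on the opposite strand overlap coding bases of 6 carriers, 283 in Slc25a46 (B930094E09Rik), 281 in Slc25a33 (Gm13068), 258 in Slc25a25 (Naif1), up to 210 in Slc25a37 (Gm31748), 165 in Slc25a23 (Gm17168) and 81 in Slc25a10 (Gm11788). For these carriers levels are uncertain, since whether the counting used strand is not given in the sources used here and reads of such partners cannot be told apart. Slc25a37 is also 100% identical to Gm16867 over 211 bases and to Gm37847 over 210 bases. Slc25a51 is 95.2% identical to Itgad over 104 bases. Reads of such copies could be shared, so these levels are uncertain too. The part of the overlaps and copies in these levels was not tested.

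Pools of 1 time point, which hold different mice, differed widely in Slc25a30 and Slc25a25, the carriers with the largest such spread in footprints. The SD between the pools of a time point was 0.76 on the log2 scale for Slc25a30 in footprints and 0.63 in total RNA, at the 99.0 percentile of all genes in footprints and the 97.5 percentile in total RNA. For Slc25a25 it was 0.56 in footprints and 0.46 in total RNA, and for Slc25a29, which had few reads, 0.34 in footprints and 0.58 in total RNA. The median carrier had 0.18 in footprints and 0.17 in total RNA, against 0.17 in footprints and 0.18 in total RNA over all genes. In Slc25a30, Slc25a25 and Slc25a47 the differences were mostly shared between the assays of a lysate. The same pool was the higher one in both assays at 11 of 12 time points for Slc25a30, 10 of 12 for Slc25a25 and 10 of 12 for Slc25a47. This was not particular to carriers with a wide spread. Slc25a5, with a footprint spread at the 1.70 percentile of all genes, Slc25a17 and Slc25a46 also had 10 of 12. The lowest were Slc25a11 with 4 of 12 and Slc25a40 and Slc25a44 with 5 of 12. The spread of this count over all genes is not given here. At ZT6 replicate 2 exceeded replicate 1 in Slc25a30 by 3.95 times in footprints and 2.93 times in total RNA, and in Slc25a25 by 3.17 times in footprints and 2.78 times in total RNA. At ZT22 replicate 1 was the higher for Slc25a30, by 2.77 times in footprints and 2.58 times in total RNA. Slc25a25 was singled out for its spread after its values were seen.

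**Figure D5:**
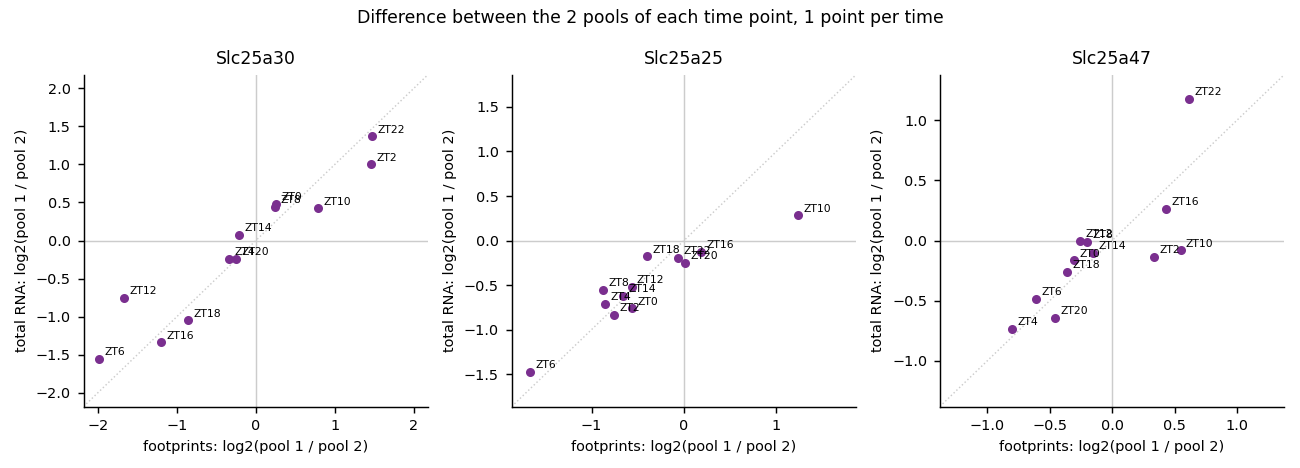
Each point is 1 time point, with log2 of pool 1 over pool 2 in footprints (horizontal axis) and in total RNA (vertical axis) for Slc25a30, Slc25a25 and Slc25a47, and the dotted line marks equal differences. Points run along the line, with ZT6 and ZT22 at the ends for Slc25a30.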

How the data were processed

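The authors deposited 1 table of RPKM values per Ensembl gene for each of 48 libraries (24 footprint, 24 total RNA). Per the submitters' processing notes, edgeR, Cufflinks 2.2.1, Bowtie2 2.2.1, cutadapt, TopHat2 2.0.11, TopHat and CASAVA 1.82 were among the tools, with builds GRCm38.p2 and mm10. Which tool did what, the gene models and any use of strand are not stated in the labels or tables used here. The upper quartiles were 21.7 to 22.7 RPKM in footprints and 26.6 to 28.1 RPKM in total RNA, so the 2 assays were not on a common scale. Low values came out as whole multiples of 1 read over the longest coding length for 57.9 to 74.1% of footprint values and 67.2 to 77.1% of total RNA values (tolerance 0.04 of a read, chance 8.0%), so depth is approximate and no count test was run. Symbols and positions came from GENCODE M21 (GRCm38).

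The genes whose mean reached 1 RPKM in each assay were fitted with limma 3.58.1 in R 4.3.3 on log2(RPKM + 0.1). Intervals are 95% intervals of the fit. The fits were tested on simulated data. Of the 34 genes that met the rule, 1 is not reported here and counts are over the other 33. Each of these is named at least once by role, and full statistics are given for those called in either assay or in efficiency, the 3 highest and 3 lowest in efficiency and the 3 most abundant. Members and lists were chosen with earlier results of these data known. Near-identical copies were searched with blastn among GENCODE transcripts (at least 95% identity over 100 bases).

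The labels' protocols make both libraries of a replicate from 1 lysate, so the assays are paired. Deviations of the 2 libraries from their time point correlated at 0.160 to 0.683 over all genes, above 0.1 at 12 of 12 time points. Replicate numbers do not pair different time points. No 2 libraries held identical values. Alternatives were a pseudocount of 0.5, no filter, time as a factor, libraries centred on their median, each pool left out, pools high in acinar transcripts or of ZT18 left out, other fold minimums and the pairing.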

Additional observations from a re-analysis of the deposited data

Results flagged for a closer look

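For 2 carriers the footprint rhythm differed from the total RNA rhythm in the test paired by lysate. In Slc25a15, the ornithine carrier, the adjusted p was 0.0296 (limma), with a fold of 1.32 in footprints and 1.24 in total RNA and a fitted peak at ZT19.9 in footprints and ZT23.4 in total RNA. In Slc25a20, the carnitine/acylcarnitine carrier, it was 0.0431, with a fold of 1.27 in footprints and 1.06 in total RNA. Without the pairing the adjusted p was 0.544 for Slc25a15 and 0.559 for Slc25a20. With 1 pool left out in turn, the paired adjusted p ran between 0.0289 and 0.0577 for Slc25a15 (22 of 24 fits passed) and between 0.0343 and 0.0891 for Slc25a20 (5 of 24 fits passed).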

How the results depend on the processing

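The 6 footprint calls among the carriers were kept in each of the 24 fits without 1 pool, with a pseudocount of 0.5, with no filter, with centred libraries and without the pools of ZT18 or those high in acinar transcripts, and the total RNA calls in these settings numbered 7 to 9. With time as a factor 8 carriers were called in footprints and 10 in total RNA. Of these, 4 in footprints and 7 in total RNA were among the calls of the cosine fit. The 10 of 33 carriers in total RNA stood beside 2863 of 9445 genes, against 1494 genes with the cosine. For footprints the share over all genes is not given here, so the 8 is no result about the carriers. With no minimum fold 20 carriers and 4253 genes passed in footprints, and 17 carriers and 4072 genes in total RNA. With the replicate block (libraries paired by lysate) 2 carriers and 305 genes passed in rhythmic efficiency, against 0 carriers and 35 genes without it, and the block changed no other carrier's call. The unpaired efficiency count over all genes was 0 without the pools high in acinar transcripts, 15 without both pools of ZT18, and between 16 and 52 with 1 pool left out, moving by over 1.5 times without ZT2 replicate 2, ZT4 replicate 1, either pool of ZT6, ZT8 replicate 2, either pool of ZT18 or ZT20 replicate 1. The cause was not tested. Over the calls of single carriers, 626 values under the alternatives kept their side of the threshold, 32 lost it and 0 changed direction. This tally leaves out carriers not called in the first place, of which Slc25a4, Slc25a11, Slc25a12 and Slc25a32 passed in footprints and Slc25a23, Slc25a39 and Slc25a51 in total RNA with time as a factor, Slc25a29 in footprints without ZT2 replicate 1 or ZT20 replicate 2, Slc25a40 in total RNA without ZT14 replicate 2, and Slc25a3 in paired efficiency without either pool of ZT0. Slc25a45 lay at 0.995 from the median gene on the log2 scale without ZT2 replicate 2, just under the minimum efficiency difference. Centring moved libraries by -0.03 to 0.04 on the log2 scale. Counts were lowest for Slc25a29, with a median of about 22.5 reads in footprint and 13.0 in total RNA libraries, and the part of depth in its missing call was not tested.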

Other observations

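Both libraries of ZT22 lay above every library of the other times in 0 of the 33 carriers in footprints and in 4 of the 33 carriers in total RNA. Over all 9445 genes the share was 0.879% in footprints and 6.74% in total RNA. Summed hepatocyte markers were highest in total RNA at ZT22 replicate 2 (90029 RPKM, against a median of 65351 RPKM over libraries), and their part in these values was not tested. The 4 were Slc25a1, Slc25a3, Slc25a23 and Slc25a39. Slc25a1, the citrate carrier, had 121 and 127 RPKM in footprints at ZT22, against 106 to 132 RPKM at the other times. Its total RNA at ZT22 was 185 and 207 RPKM, against 137 to 165 RPKM at the other times. Slc25a23 had 11.9 RPKM in the footprints of both ZT22 pools, and 116 and 131 RPKM in total RNA at ZT22, against 71.6 to 106 RPKM at the other times. Slc25a3, the phosphate carrier, had 171 and 183 RPKM in footprints at ZT22, against 134 to 221 RPKM at the other times, and 192 and 199 RPKM in total RNA at ZT22, against 140 to 177 RPKM. The comparison with ZT22 was chosen after the values were seen and was not tested.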
